A study of Rattus norvegicus with 24 samples.

Results

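Cells make reactive oxygen species as a by-product of respiration and remove them with a set of antioxidant enzymes. The data described here are the signals of 58 probe sets for 54 of these enzymes' genes, out of 15866 probe sets on the array other than controls. A probe set is a group of short probes for 1 transcript. The members were chosen by name: each probe set whose single gene symbol began with Gst, Mgst, Gpx, Prdx, Sod, Txn or Gcl, or was Cat, Gss, Gsr or Nqo1. The genes Gclc, Txnl1 and Txnrd1 had more than 1 probe set, numbered here in the order of the probe set names. A further 2 probe sets of these families carry several symbols each and were left out, 1 of which is the array's probe set for Prdx1. The prefix Txn also takes in proteins with a thioredoxin fold whose known work is not the removal of oxidants, such as the splicing factors Txnl4a and Txnl4b.

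The study followed gene expression over the life of normally ageing male Sprague-Dawley rats, untreated, at 4, 10, 18 and 24 months. The 6 tissues analysed here are liver, kidney, bone, pituitary, hypothalamus and spleen lymphocyte, which gives 24 groups of 1 array each. Each array held an equal mix of RNA from 10 rats, so differences between rats within a pool were not measured, and 1 set of 10 rats gave all tissues at an age. Each value is a MAS5.0 signal, the brightness of a probe set on a linear scale, scaled by the authors to a target of 500 on every array. The median signal of an array lay between 213 and 309, and on each array 67.8 to 77.0% of the probe sets reached 100. Of the 58 members, 38 reached 100 on all 24 arrays, 55 on at least 4 and 2 on none, the last being Gpx6, an olfactory glutathione peroxidase, and 1 probe set of Txnl1. Marker genes of each labelled tissue were far higher in that tissue than in the other 5, and 10 of 11 bone markers reached 100 on every bone array. The bone arrays also had the highest summed signals of the neutrophil and erythroid markers.

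Glutathione is a tripeptide made in 2 steps: glutamate-cysteine ligase (catalytic subunit Gclc, modifier subunit Gclm) joins glutamate and cysteine, and glutathione synthetase (Gss) adds glycine. Glutathione peroxidases (Gpx) use it to reduce peroxides, glutathione reductase (Gsr) restores it, and glutathione transferases (Gst in the cytosol, Mgst in membranes) attach it to drugs, toxins and products of lipid oxidation. Superoxide dismutases (Sod) turn superoxide into hydrogen peroxide, which catalase (Cat) and the peroxiredoxins (Prdx) remove, and thioredoxin (Txn1) with its reductase (Txnrd1) recharges the peroxiredoxins. Liver and kidney are known for high activity of the transferases, since both handle foreign compounds. Many genes of the pathway carry an antioxidant response element in their regulatory sequence, which is bound by the transcription factor Nrf2 (gene Nfe2l2).

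The core of that element, TGACNNNGC on either strand, was looked for in the RefSeq promoters of assembly GRCr8, each covering 250 bases before and 50 after the start of a gene. Of the 54 genes, 46 had an entry, with 50 promoters. The core was present in 16 of these promoters (32.0%) and in 4038 of 33469 promoters of all genes (12.1%). It read TGACTAAGC in Gclm, TGACTTAGC in Gpx2, TGACTTTGC in Gsta1, TGACTTCGC in Gsta3 and TGACTCAGC in Gstp1. No match lay in the windows of Cat, Gclc, Gss, Gpx3, Nqo1, Mgst1 or Mgst3. A match is a description of the letters in the window and not evidence of binding. The 250 bases before the start are shown for 4 genes whose signals stood apart in 1 tissue or more in the results that follow: Gclm, high in kidney, at chr2:213031885-213032134 (+ strand), Gstm5, high in hypothalamus, at chr2:198219519-198219768 (+ strand), Gstm7, high in hypothalamus, at chr2:198260320-198260569 (- strand), and Gstp1, low in liver, at chr1:210769706-210769955 (- strand). Capitals mark the core, read on the strand of the gene or as its reverse complement.
Gclm: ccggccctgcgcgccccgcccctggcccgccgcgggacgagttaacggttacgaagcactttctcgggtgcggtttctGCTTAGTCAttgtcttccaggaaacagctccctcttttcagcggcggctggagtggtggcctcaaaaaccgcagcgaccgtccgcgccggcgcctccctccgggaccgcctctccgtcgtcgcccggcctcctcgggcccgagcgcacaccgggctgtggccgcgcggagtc
Gstm5: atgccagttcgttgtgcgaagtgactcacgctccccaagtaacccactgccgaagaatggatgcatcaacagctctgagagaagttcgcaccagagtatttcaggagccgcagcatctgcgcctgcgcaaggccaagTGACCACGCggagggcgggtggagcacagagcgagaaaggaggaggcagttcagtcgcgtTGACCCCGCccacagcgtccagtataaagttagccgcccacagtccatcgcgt
Gstm7: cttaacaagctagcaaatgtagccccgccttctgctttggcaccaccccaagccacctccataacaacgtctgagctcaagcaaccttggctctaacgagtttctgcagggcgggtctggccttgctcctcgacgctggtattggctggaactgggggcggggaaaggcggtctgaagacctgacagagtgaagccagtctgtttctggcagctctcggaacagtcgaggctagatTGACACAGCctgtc
Gstp1: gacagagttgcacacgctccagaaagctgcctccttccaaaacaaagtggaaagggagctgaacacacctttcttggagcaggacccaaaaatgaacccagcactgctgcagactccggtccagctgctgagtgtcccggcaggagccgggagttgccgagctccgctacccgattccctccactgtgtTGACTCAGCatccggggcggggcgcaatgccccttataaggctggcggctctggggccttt

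The first question was how the enzymes are spread over the tissues. Of the 58 probe sets, 23 had their highest mean in kidney and 21 in liver, against 5 in spleen lymphocyte, 4 in hypothalamus, 3 in bone and 2 in pituitary. Spleen lymphocyte held the lowest mean of 25. Dim probe sets are part of these counts. Gpx6 and the Txnl1 probe set under 100 on all arrays are among the 5 of spleen lymphocyte. Gstm3, at 100 on 1 array, is among the 21 of liver. Ranks by mean were not counted over all probe sets. All 4 arrays of a tissue lay above every array of the other 5 for 14 probe sets in kidney and 12 in liver, where 4.5% and 4.82% of all probe sets did so, and all 4 lay below for 7 in spleen lymphocyte (3.03% of all probe sets). For tests, signals under 100 were raised to 100, and each tissue was compared on the log2 scale with the mean of the other 5 by limma, with age as a second factor. A probe set was called where the Benjamini-Hochberg adjusted p was under 0.05 and the difference at least 2-fold, over the 14031 probe sets at 100 or more on at least 4 arrays, among them 55 members. The arrays of a tissue differ in age and are not replicates of 1 condition. The p-values thus measure the spread over ages within tissues left after a shift common to the tissues, and not that between rats. A difference in signal between tissues can come from fewer cells of a type or from less RNA per cell, and these cannot be told apart in such samples. Since each tissue is set against the mean of the other 5, a very high signal in 1 tissue can by itself bring calls of lower elsewhere.

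**Figure D1:**
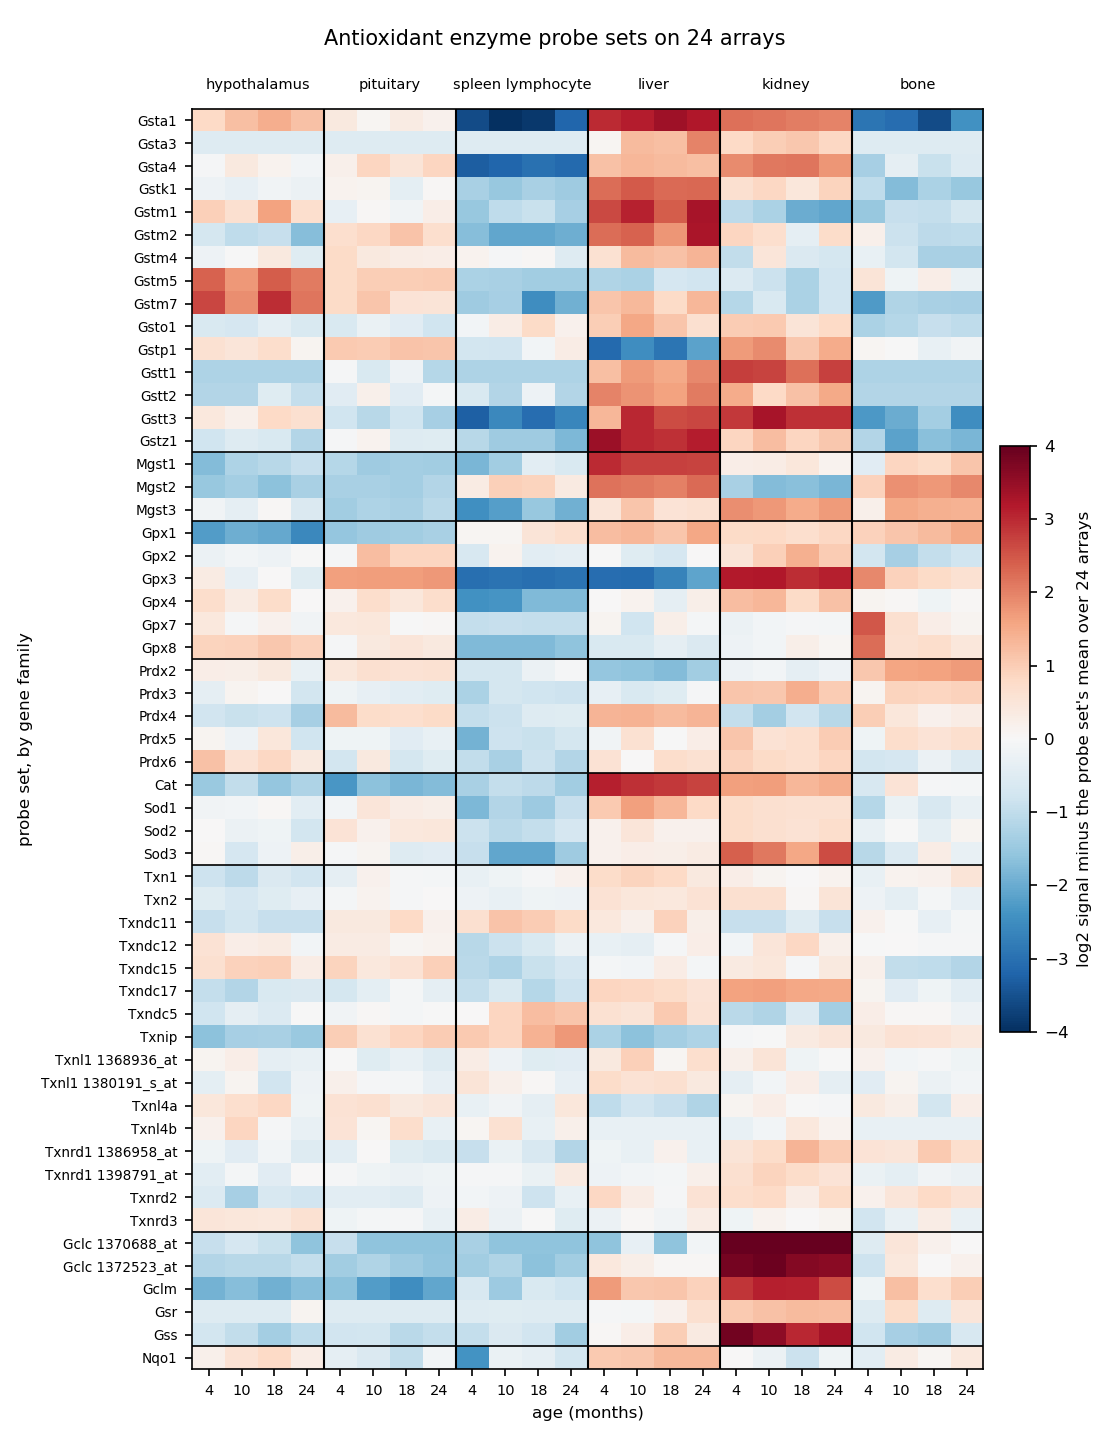
Each row is 1 of the 55 probe sets at 100 or more on at least 4 arrays, grouped by family, and each column is 1 array, ordered by tissue and age in months. The colour is the log2 signal (floor 100) minus the mean of the row over 24 arrays, with values beyond 4 drawn at the end of the scale. Gclc, Gclm and Gss stand out in kidney, most Gst genes in liver, and most rows are below their mean in spleen lymphocyte.

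In kidney, 24 of the 55 members were higher, or 43.6%, where 9.84% of all probe sets were called higher, and 6 were lower (9.09% of all). The median difference of the members was 0.84 on the log2 scale, against -0.16 over all probe sets. The glutathione synthesis genes Gclc and Gss led the list, and all 5 probe sets of Gclc, Gclm, Gss and Gsr were called higher. For Gclc, the catalytic subunit of the rate-limiting enzyme, the second probe set had signals of 15350, 16235, 13914 and 13295 in kidney at the 4 ages. The other 20 arrays ran from 348 to 1457, median 499, so the groups did not overlap. Its difference on the log2 scale was 4.51 ± 0.14 (SE, adjusted p = 3.2e-16), or 22.8-fold. The first probe set of Gclc read 9659, 8046, 9580 and 8583 in kidney. It was under 100 on 3 arrays each of pituitary and spleen lymphocyte and on 2 of liver, and its difference of 5.85 ± 0.23 (SE, adjusted p = 1.5e-14) rests in part on the floor. Gss, which completes the tripeptide, had kidney signals of 5276, 4343, 2917 and 3628, while the other 20 arrays ran from 136 to 715, median 210.2. The lowest kidney array was thus far above the highest of any other tissue, and the difference was 4.13 ± 0.18 (SE, adjusted p = 7.2e-14). Gclm read 4034, 4768, 4685 and 3361 in kidney. The other 20 arrays ran from 93.6 to 1816, median 337, with the high end in liver, and the kidney difference was 3.49 ± 0.21 (SE, adjusted p = 1.1e-11). Gsr, the reductase, was dim throughout, with 298, 327, 343 and 341 in kidney and under 100 on every pituitary array. Its kidney difference was 1.42 ± 0.16 (SE, adjusted p = 2.9e-07).

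Gpx3, the secreted peroxidase of blood plasma that the kidney tubule is known to make, read 28080, 28924, 24132 and 27264 in kidney. The other 20 arrays ran from 372 to 11907, median 2824, with pituitary and bone between kidney and the rest. The kidney difference was 3.73 ± 0.18 (SE, adjusted p = 5.7e-13). The theta class transferases Gstt3 and Gstt1 had kidney differences of 3.60 and 3.11. Gstt1 was under 100 on every array of hypothalamus, spleen lymphocyte and bone, so its difference rests in part on the floor. Sod3, the extracellular superoxide dismutase, had kidney signals of 2231, 1827, 1229 and 2584. No other array exceeded 530, and its difference was 2.61 ± 0.22 (SE, adjusted p = 4.4e-09). The alpha class genes Gsta1 and Gsta4, the second of which handles the lipid oxidation product 4-hydroxynonenal, differed by 2.52 and 2.38. Mgst3 (2.04), Txndc17 (1.90), Gstp1 (1.84), Cat (1.83), the mitochondrial Prdx3 (1.40) and Gpx4, which reduces peroxides within membranes (1.35), were called higher as well. Mgst2 was the most reduced member in kidney, with 295, 217, 227 and 202 against 3283, 3118, 2931 and 3513 in liver. Its kidney difference was -1.97 ± 0.15 (SE, adjusted p = 8.5e-10). Gstm1, of the mu class, read 624, 534, 329 and 308 in kidney and differed by -1.91 ± 0.21 (SE, adjusted p = 1.4e-07). The lowest of these kidney arrays were those of 18 and 24 months.

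**Figure D2:**
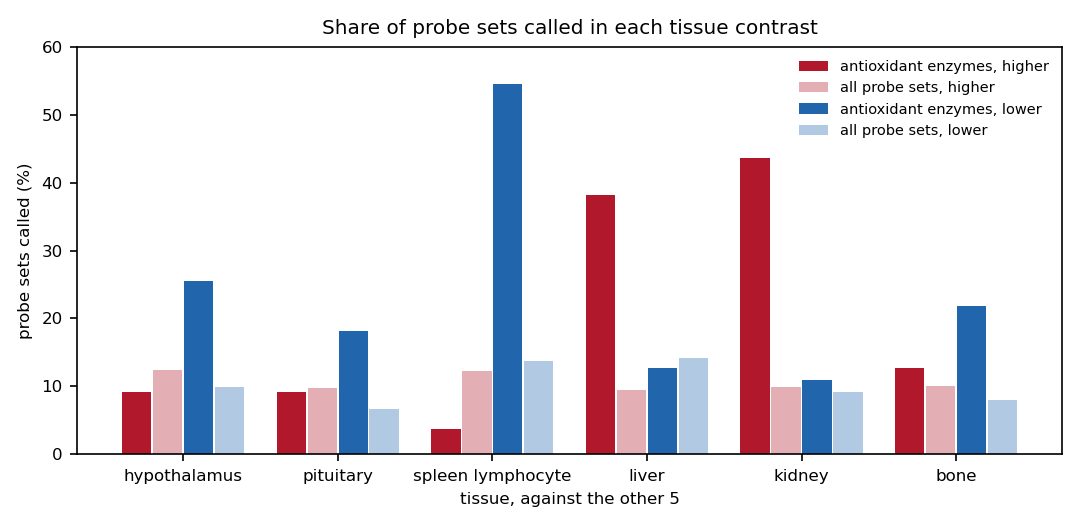
Dark bars show the percent of the 55 antioxidant enzyme probe sets called higher (red) or lower (blue) in each tissue against the other 5, and pale bars the percent of all 14031 probe sets. The members are called higher in kidney (43.6%) and liver (38.2%), and lower in spleen lymphocyte (54.5%), well beyond the pale bars beside them. The shares called lower in hypothalamus (25.5%), bone (21.8%) and pituitary (18.2%) are also above their pale bars.

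In liver, 21 members were higher, or 38.2% (9.38% of all probe sets), and 7 were lower (14.1% of all). The median difference was 0.62, against -0.20 over all probe sets. The transferases carried most of it: of 15 Gst probe sets tested, 13 were higher and 2 lower in liver, with a median of 1.91. Gsta1, which also acts on steroids and bilirubin, read 13553, 15113, 17935 and 15784 in liver. The other 20 arrays ran from 52.4 to 7991, median 2056, and the difference was 3.81 ± 0.16 (SE, adjusted p = 2.5e-14). Gstz1, the maleylacetoacetate isomerase of tyrosine breakdown, read 6069, 4606, 4307 and 5075. No array of another tissue exceeded 1349, and it differed by 3.75 ± 0.15 (SE, adjusted p = 7.6e-15). Cat, the peroxisomal catalase, read 24997, 21887, 20811 and 19036 in liver and 9046, 9224, 7393 and 8029 in kidney. Liver was highest at every age, kidney next, and no array of the other 4 tissues exceeded 4253. The liver difference of Cat was 3.46 ± 0.14 (SE, adjusted p = 7.2e-15). Gstm1 read 8087, 10918, 6999 and 12743 in liver, where kidney was the lowest tissue by its mean, and its liver difference was 3.44 ± 0.21 (SE, adjusted p = 9.8e-12). Mgst1, the abundant transferase of liver endoplasmic reticulum, read 44590, 37525, 37220 and 36672 and differed by 3.34 ± 0.20 (SE, adjusted p = 1e-11). After liver, its highest arrays were those of bone at 10, 18 and 24 months. Gstm2, Gstt3, Gstk1 and Mgst2 were higher by 2.89, 2.89, 2.77 and 2.57. Among the enzymes outside the transferases, Prdx4 of the endoplasmic reticulum (1.62), Gpx1, the cytosolic peroxidase (1.57), Sod1, the cytosolic dismutase (1.45), Gclm (1.45) and Nqo1, a quinone reductase (1.42), were higher.

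The members called lower in liver belonged to several families. Gpx3 read 376, 372, 491 and 724 in liver, about the level of spleen lymphocyte, and differed by -3.28 ± 0.18 (SE, adjusted p = 3.3e-12). Gstp1, the pi class transferase known to be nearly silent in normal hepatocytes, read 294, 454, 333 and 570.5. The other 20 arrays ran from 1486 to 9301, median 3701, with no overlap, and the difference was -3.19 ± 0.18 (SE, adjusted p = 5e-12). Kidney was the highest tissue for Gstp1 at every age except 18 months. Prdx2 read 1543, 1499, 1352 and 1730 in liver, below every other array, and differed by -1.89 ± 0.14 (SE, adjusted p = 2.4e-10). Txnip, the inhibitor of thioredoxin (-1.65), Txnl4a (-1.18), Gstm5 (-1.17) and the first Gclc probe set (-1.09) were lower. The second Gclc probe set, with 1457, 1273, 1118 and 1118, was not called in liver (0.23), so the probe sets of this gene disagree there. Members of the alpha and mu classes are close in sequence, and whether their probes also bind the transcripts of related genes was not tested.

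**Figure D3:**
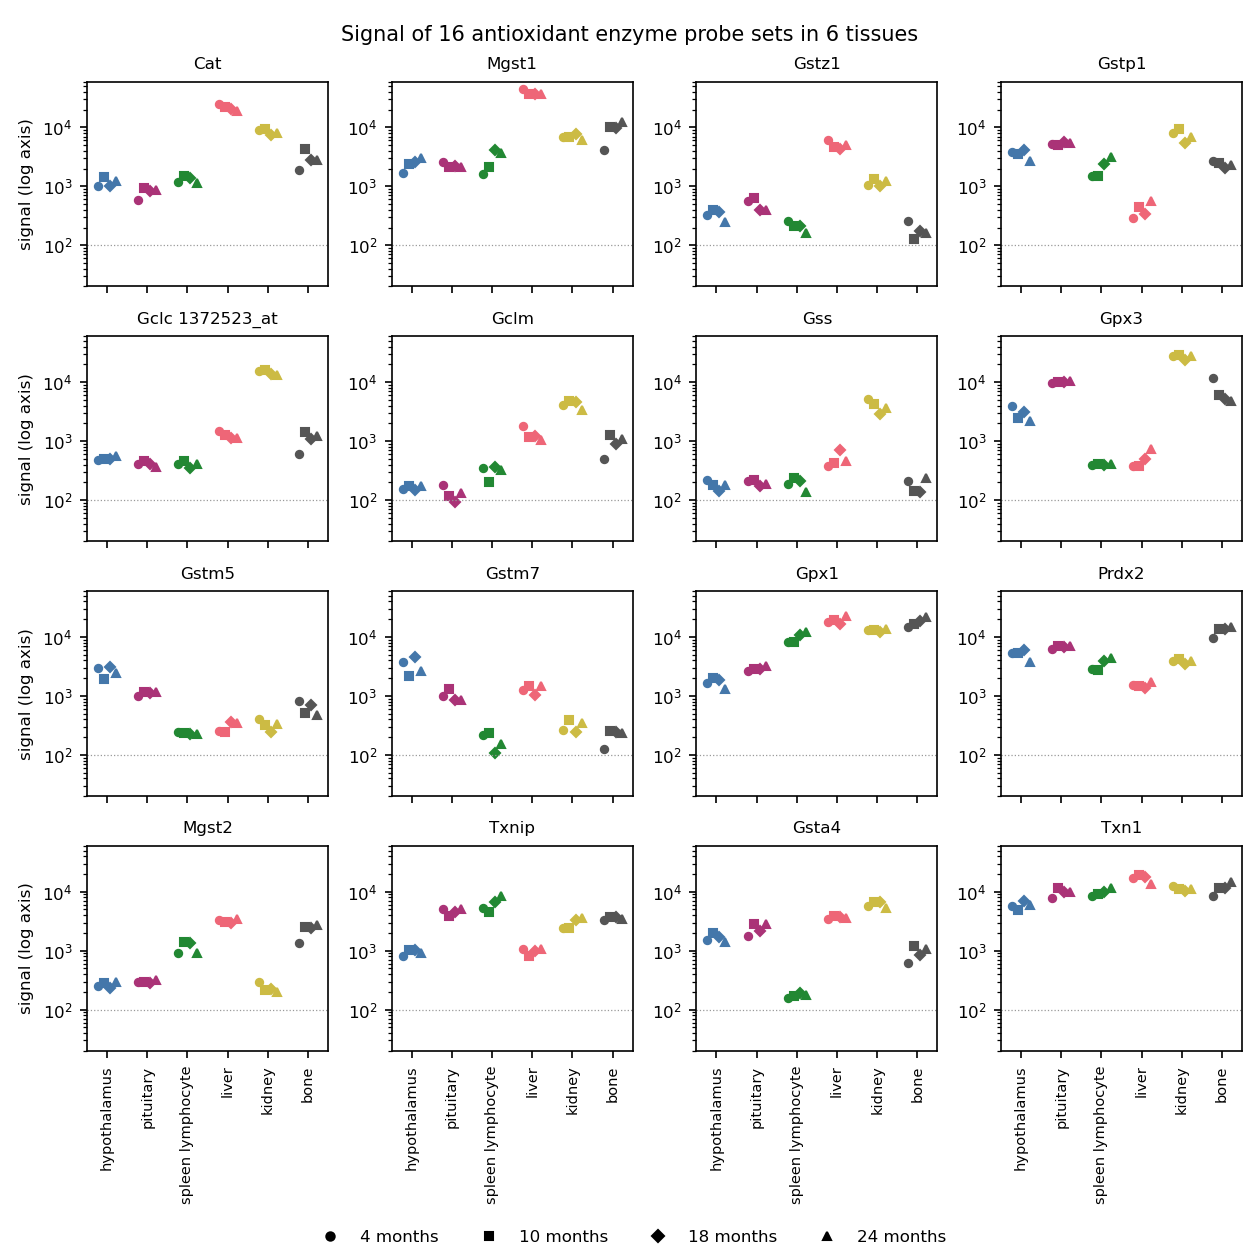
Each panel is 1 probe set, with its signal on a log axis for 6 tissues, and each point is 1 array (circle 4, square 10, diamond 18 and triangle 24 months). The dotted line is the floor of 100. Cat, Mgst1 and Gstz1 are highest in liver, Gclc, Gclm, Gss and Gpx3 in kidney, Gstm5 and Gstm7 in hypothalamus, and Txn1 lies between 4957 and 18955 on all arrays.

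In spleen lymphocyte, 30 members were lower, or 54.5% (13.7% of all probe sets), and 2 were higher (12.2% of all). The median difference was -1.06, against -0.07 over all probe sets. The lower members covered most families: 10 of 15 Gst, 4 of 6 Gpx and 3 of 5 Prdx probe sets, all 4 of Sod and Cat, and 4 of 5 of Gcl, Gss and Gsr. A lower call does not mean the lowest tissue. Gss averaged 195 in spleen lymphocyte, against 180 in hypothalamus, 181 in bone and 4041 in kidney. Gclm averaged 311, above hypothalamus (160) and pituitary (130). Gsta1 read 143, 52.4, 118 and 192 in spleen lymphocyte, below the floor on 1 array, and differed by -4.41 ± 0.16 (SE, adjusted p = 7.9e-15). Gsta4 read 157, 173, 193 and 179, below every array of the other tissues, whose lowest was 609, and differed by -3.77 ± 0.12 (SE, adjusted p = 1.1e-15). Gpx3 read 388, 404, 388 and 405 (-3.58) and Gpx4 659, 691, 1039 and 1043 (-2.50). For Gpx4, whose loss is known to let lipid peroxides kill cells, no other tissue had an array under 2779. The dismutases Sod1, Sod2 and Sod3 differed by -1.60, -1.06 and -1.95. The members that went the other way were both of the thioredoxin group. Txnip read 5203, 4568, 6616 and 8439 in spleen lymphocyte against 802 to 1032 in hypothalamus, and differed by 1.51 ± 0.12 (SE, adjusted p = 1.5e-09). Txndc11, a protein of the endoplasmic reticulum, read 295, 425, 389 and 324 and differed by 1.07 ± 0.13 (SE, adjusted p = 4.5e-07). Degraded RNA raises the log2 ratio of 3 prime to 5 prime Actb signal. It was 1.88 to 3.74 on the spleen lymphocyte arrays and 0.48 to 3.09 on those of the other tissues, and its part in the lower signals was not tested.

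In hypothalamus, 5 members were higher, or 9.09% (12.4% of all), and 14 were lower, or 25.5% (9.94% of all). The mu class transferases Gstm7 and Gstm5 had the largest differences among the members called higher, but not all of the class was high. Gstm2 read 255, 209, 222 and 128 in hypothalamus, and only spleen lymphocyte had a lower mean. Gstm4 averaged 240 in hypothalamus, against 543 in liver. Of 15 Gst probe sets tested, 4 were higher and 3 lower in hypothalamus, with a median of -0.09. Gstm7 read 3783, 2159, 4594 and 2609 in hypothalamus. The other 20 arrays ran from 106 to 1492, median 311, and the difference was 2.88 ± 0.22 (SE, adjusted p = 4e-10). Gstm5 read 2992, 1947, 3143 and 2469, above every array of pituitary, the next tissue, which ran from 990.5 to 1184. Its difference was 2.59 ± 0.15 (SE, adjusted p = 5.3e-12). Gsta1 (1.38), Gstm1 (1.16) and Gpx8, a peroxidase of the endoplasmic reticulum (1.15), were also higher. Gpx1 read 1627, 1985, 1843 and 1289 in hypothalamus, below every array of the other 5 tissues, and differed by -2.65 ± 0.13 (SE, adjusted p = 2.6e-13). Gclm read 151, 170.4, 146 and 171 and differed by -2.16 ± 0.21 (SE, adjusted p = 1.6e-08). Txnip (-1.73), Cat (-1.58), Mgst2 (-1.75), Mgst1 (-1.50) and both probe sets of Gclc (-1.30 and -1.23) were lower as well. The summed signal of 10 hepatocyte markers ran from 1372 to 13105 in hypothalamus, with the high value at 10 months. Without that array and the 18-month kidney array, 5 members were called higher and 15 lower in hypothalamus.

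In pituitary, 5 members were higher, or 9.09% (9.74% of all), and 10 were lower, or 18.2% (6.64% of all). Gpx3 read 9841, 9898, 9931 and 10488 in pituitary, with little spread over the ages, and differed by 2.01 ± 0.18 (SE, adjusted p = 1.7e-08). Gstp1 read 5206, 5104, 5543 and 5416 and differed by 1.29 ± 0.18 (SE, adjusted p = 7e-06). Gstm5 (1.12), Prdx4 (1.04) and Txnip (1.04) were higher by little more than the 2-fold limit. With arrays centred on their medians, 2 members were called higher in pituitary in place of 5. Gclm read 177, 118, 93.7 and 130.3 in pituitary, the lowest of the tissues by its mean, and differed by -2.54 ± 0.21 (SE, adjusted p = 2.9e-09). Cat read 579, 945, 827 and 872 and differed by -2.26 ± 0.14 (SE, adjusted p = 3.3e-11). All 3 Mgst probe sets were lower in pituitary, with differences of -1.59, -1.53 and -1.50 for Mgst1, Mgst2 and Mgst3.

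In bone, 7 members were higher, or 12.7% (10.1% of all), and 12 were lower, or 21.8% (7.99% of all). Membrane transferases were among the higher ones, and soluble transferases among the lower ones. Of 6 Gpx probe sets tested, 4 were higher in bone and 1 lower, but the calls of Gpx3, Gpx7 and Gpx8 were lost without the 4-month bone array, with differences of 0.98, 0.56 and 0.75. Of 15 Gst probe sets, 0 were higher and 10 lower. Mgst2, which also makes leukotriene C4, read 1371, 2560, 2433 and 2730 in bone and differed by 1.92 ± 0.15 (SE, adjusted p = 1.5e-09). Prdx2, a major protein of red blood cells, read 9516, 13538, 13861 and 14667 in bone, above every array of the other tissues. Its difference was 1.78 ± 0.14 (SE, adjusted p = 9.5e-10). Gpx1, also abundant in red blood cells, read 14571, 16383, 18524 and 22035 and differed by 1.44 ± 0.13 (SE, adjusted p = 6e-09), with arrays that overlapped those of liver. Mgst3 (1.36), Gpx3 (1.26), Gpx8 (1.21) and Gpx7, another peroxidase of the endoplasmic reticulum (1.06), were higher. Gpx7 read 1098, 306, 232 and 212 in bone at the 4 ages, with the 3 later arrays near those of hypothalamus and pituitary (178 to 265). Gpx8 read 1589, 517, 549.9 and 465, and its 3 later arrays were below those of hypothalamus (622 to 718). The summed signal of 4 erythroid markers ran from 38334 to 63248 in bone, against 16434 to 31778 in spleen lymphocyte, the next tissue. That of 3 neutrophil markers ran from 31244 to 79948 in bone, against 1458 to 8491 in spleen lymphocyte, and the part of marrow cells in the bone signals was not tested. Gsta1 read 227, 209, 143 and 319.5 in bone and differed by -3.59 ± 0.16 (SE, adjusted p = 2.4e-13). Gstt3 read 217, 269, 412 and 190.1 and differed by -2.44 ± 0.20 (SE, adjusted p = 2.8e-09).

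Of the 16 probe sets of the thioredoxin group tested, 7 were called in at least 1 tissue, as were all 39 tested probe sets of the other families and 54.9% of all 14031 probe sets. Txn1, thioredoxin itself, read 5743, 4957, 6912 and 6022 in hypothalamus, the lowest tissue, and 17071, 18955, 17967 and 13553 in liver, the highest. Its largest difference was -0.97 ± 0.13 (SE, adjusted p = 2e-06) in hypothalamus, just short of 2-fold. Txn2, its mitochondrial form, ran from 979 to 2443 over all 24 arrays. The 2 probe sets of Txnrd1 went the same way in kidney, where the first was called higher (1.08) and the second fell short of 2-fold (0.84). Txnip had calls in 4 tissues, higher in spleen lymphocyte and pituitary and lower in hypothalamus and liver.

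Other genes of the same pathways, 62 of them on the array and 60 tested with the same fit, were also described. In kidney, 25 were higher and 7 lower (9.84% and 9.09% of all probe sets), with a median difference of 0.65. In liver 19 were higher and 3 lower (9.38% and 14.1%, median 0.38), and in spleen lymphocyte 3 and 21 (12.2% and 13.7%, median -0.56). Hypothalamus had 0 and 14 (12.4% and 9.94%), pituitary 2 and 15 (9.74% and 6.64%), and bone 12 and 11 (10.1% and 7.99%). Nfe2l2, the gene of Nrf2, had differences of 0.90 in kidney and 0.77 in liver, neither past the limit, and was lower in hypothalamus (-1.27). Keap1, its repressor, was called in 0 of the 6 tissues. Ggt1, the surface enzyme that breaks glutathione down outside the cell, was higher in kidney (4.88). Anpep (2.93), Dpep1 (1.29) and Oplah (3.65), which act after it, were higher in kidney too. Of 7 genes listed for cysteine supply, 5 were higher in liver and 1 lower, the higher ones including Mat1a (6.69), Gnmt (5.05) and Cth (4.00). Cth was also higher in kidney (3.18). Mean signals were under 100 in all tissues but liver for Mat1a, and in all but liver and kidney for Cth. Their differences thus rest in part on the floor. Selenop, which carries the selenium that some of the Gpx enzymes need, was higher in liver (2.62) and kidney (1.26). The oxidant-producing Nox4 was higher in kidney (2.66), and Hmox1, which breaks down heme, was higher in bone (2.07) and spleen lymphocyte (1.93) and lower in kidney (-2.05).

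The second question was whether the enzymes changed with age. No member passed an adjusted p of 0.05 in limma for a change common to the 6 tissues, from 4 to 10, 10 to 18, 18 to 24 or 4 to 24 months, where 0.0143%, 0.0%, 0.0% and 0.0143% of all probe sets did. At an unadjusted p under 0.05 there were 3, 2, 2 and 5 of the 55 members, and 649, 383, 409 and 796 of all 14031 probe sets. The members with the smallest p from 4 to 10 months were Gsta4, with a change of 0.42 ± 0.13 (SE, adjusted p = 0.72) on the log2 scale, Cat, with 0.43 ± 0.14 (SE, adjusted p = 0.89), and Sod1, with 0.43 ± 0.15 (SE, adjusted p = 0.96). The Sod1 signal was higher at 10 than at 4 months in 5 tissues and lower in kidney.

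A change within 1 tissue between consecutive ages rests on 1 array at each age and has no test, so members are counted here by a 2-fold limit, provided that both arrays read 100 or more. Over the 6 tissues and 3 phases, 28 of 899 such member comparisons passed it, or 3.11%, against 4.25% of those of all probe sets. From 4 to 10 months, 12 of 300 were higher and 4 lower, where 1.76% and 2.3% of all were. From 10 to 18 months, 2 of 299 were higher and 4 lower (3.05% and 1.68% of all), and from 18 to 24 months 4 of 300 were higher and 2 lower (1.84% and 2.13%). Most of the first phase lay in bone, with 6 higher and 4 lower.

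In bone, from 4 to 10 months, 6 of 49 members with a measured change were higher (3.85% of all probe sets) and 4 lower (5.63%). The glutathione synthesis genes Gclc and Gclm were among the higher ones. Gss, which completes glutathione, was not, with 208.9, 145, 136 and 234 at the 4 ages. Gclm had bone signals of 498, 1273, 893 and 1106 at 4, 10, 18 and 24 months and was 1.35 higher at 10 months on the log2 scale. The second Gclc probe set had 609.7, 1437, 1082 and 1230 (1.24). In both, the 3 later ages lay above the array of 4 months. The membrane transferases Mgst1, with 4110, 10304, 9594 and 12266 (1.33), and Mgst3, with 2554, 6390, 5916 and 5839 (1.32), had the same course. Cat had 1884, 4253, 2829 and 2784, highest at 10 months (1.18). Gstm7 had 123, 256, 241 and 239 (1.05), near the floor at 4 months. Gstm2 was lower, with 482, 230.3, 203 and 208 (-1.07).

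The largest decreases among members in bone from 4 to 10 months were those of the peroxidases of the endoplasmic reticulum, which are known to act beside the enzymes that fold secreted proteins. Gpx7 had 1098, 306, 232 and 212 (-1.84 from 4 to 10 months), and Gpx8 1589, 517, 549.9 and 465 (-1.62). Txndc15 had 1103, 488, 478 and 431 (-1.18), and Gpx3 11907, 5954, 5278 and 4781, just short of the limit at 10 months. In each of these 4, the array of 4 months stood above the 3 later ones. A linear slope over age, fitted for each tissue by limma and given as the log2 change over 20 months, was called in bone for 3 members lower (1.95% of all probe sets) and 1 higher (0.698%): Gpx7 at -2.18 ± 0.44 (SE, adjusted p = 0.014), Gpx8 at -1.50 ± 0.36 (SE, adjusted p = 0.033), Gpx3 at -1.20 ± 0.30 (SE, adjusted p = 0.044) and Mgst1 at 1.32 ± 0.34 (SE, adjusted p = 0.048). Without the 4-month bone array 0 members had a called slope in bone, and without the 18-month array 1 did. The test of whether the slope differed between the 6 tissues was passed by 0 of the 55 members and by 208 of all 14031 probe sets (1.48%), and 7 members had an unadjusted p under 0.05, as did 13.8% of all probe sets. At an unadjusted p under 0.05, 12 members had a slope in bone, and 14.3% of all probe sets did. In the test of a difference between the 6 slopes, the smallest adjusted p among members was 0.092, for Gsta3, which was at the floor in 4 tissues.

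Signals of several marker lists moved in bone over the same ages. Whether the number of cells or the RNA per cell changed cannot be told apart. From 4 to 10 months, 5 of 10 measured bone markers were lower and 0 higher, and the summed signal of the 11 bone markers went from 132814 to 74332, then to 51534 and 43763. The sum of the neutrophil markers went from 31244 to 53964, 61639 and 79948, and that of the erythroid markers from 38334 to 50418, 54676 and 63248. Of 5 measured skeletal muscle markers, 4 were higher at 10 months. From 4 to 10 months the sums moved less for lymphocyte markers (5618 to 5468) and macrophage markers (11484 to 10789). The part of these shifts in the changes of Gpx7, Gpx8, Gpx3, Mgst1 and the others was not tested. Of 54 related genes with a measured change, 10 were higher in bone from 4 to 10 months (3.85% of all probe sets) and 1, Atox1, was lower (5.63%). The 10 were Taldo1, Pgd and Tkt of the pentose phosphate pathway, Hmox1, Glrx, Hagh, Msrb1, Hp, and Cybb and Ncf1, parts of the oxidase of phagocytes.

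**Figure D4:**
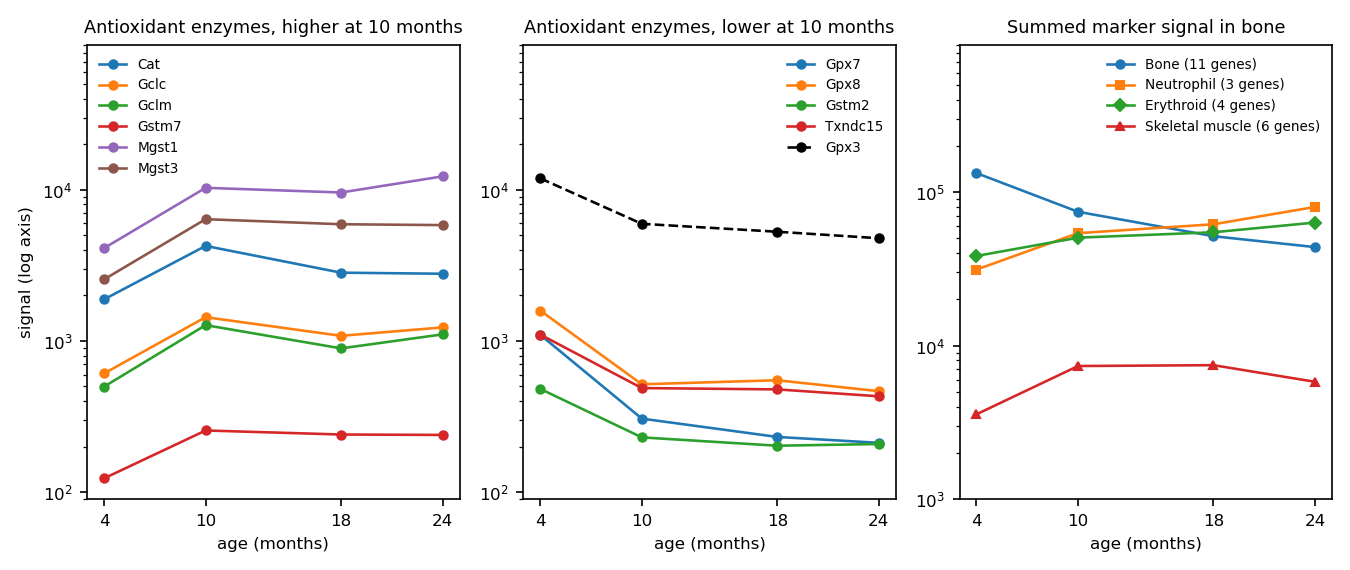
Signal in bone on a log axis against age in months, with 1 array per point. Left, the 6 members at least 2-fold higher at 10 than at 4 months. Middle, the 4 members at least 2-fold lower, and Gpx3 (dashed), just short of it. Right, summed signals of marker genes in the same arrays: bone markers go from 132814 at 4 months to 43763 at 24 months while neutrophil markers go from 31244 to 79948.

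From 18 to 24 months in bone, Gsta1 was higher (1.86% of all), with 227, 209, 143 and 319.5 at the 4 ages, and Gstt3 lower (6.29%), with 217, 269, 412 and 190.1. From 4 to 24 months, 4 members were at least 2-fold higher in bone (4.77% of all) and 5 lower (6.42%).

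In liver, 2 members were at least 2-fold higher at 10 than at 4 months (1.52% of all), both transferases. Gstt3 had liver signals of 2710, 8628, 6561 and 6764 at the 4 ages, lowest at 4 months (1.67). Gsta3, an alpha class enzyme, had 152, 344, 328 and 568 (1.18), and it was the only member with a called slope in liver, 1.61 ± 0.27 (SE, adjusted p = 0.017), where 0.178% of all probe sets were called higher and 0.107% lower. Gsta3 reached 100 on 8 arrays, those of liver and kidney, and was set to 100 on the other 16, which have no spread and make the pooled error of its slope too small. The call is therefore given as a value only, and it was lost when any 1 age was left out. In the same liver arrays, Gpx3 had 376, 372, 491 and 724, with a slope of 0.95 ± 0.30 (SE, adjusted p = 0.28). From 10 to 18 months Gpx7 was higher in liver, with signals from 113 to 228 (2.22% of all), and from 18 to 24 months Gstm2 was higher (2.25%), with 1953, 2158, 1425 and 4010 at the 4 ages (1.49). From 4 to 24 months Gstm2, Gstt3 and Gsta3 were at least 2-fold higher in liver (3.49% of all). Of 10 hepatocyte markers in liver, 0 passed the 2-fold limit from 4 to 10 months, 1 was lower from 10 to 18 months and 2 were higher from 18 to 24 months. In the last phase 1 of 4 macrophage markers was higher, with a sum of 3299 and then 5357, and the Gapdh 3 prime to 5 prime log2 ratio went from 2.06 to 0.74. The part of these shifts in the Gstm2 change was not tested.

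In kidney, Gstm4 was higher from 4 to 10 months (0.793% of all), with signals of 126, 345, 167 and 151. From 10 to 18 months Gstm2 and Gstm4 were lower (3.64%), and from 18 to 24 months Gstm2 and Sod3 were higher (2.47%). Gstm2 had 756, 669, 323 and 696 and Sod3 2231, 1827, 1229 and 2584, each lowest at 18 months. Of 6 measured hepatocyte markers in kidney, 3 were lower from 10 to 18 months (median -0.81) and 2 higher from 18 to 24 months (0.55), and the 18-month kidney array had the smallest share of probe sets at 100 of all arrays, 67.8%. Their part in these changes was not tested. No member had a called slope in kidney, nor did any of the 14031 probe sets. From 4 to 24 months Gstm1 was lower (0.472% of all). At an unadjusted p under 0.05 for the slope there was 1 member (2.9% of all), also Gstm1, at -1.12 ± 0.42 (SE, adjusted p = 1).

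In spleen lymphocyte, Prdx5 was higher from 4 to 10 months (2.08% of all), with 601, 1262, 1199 and 1380, and Gstm7 lower from 10 to 18 months (1.4%), with 220.0, 239, 106 and 155. Over the whole span from 4 to 24 months 4 members of 47 were at least 2-fold higher (2.25% of all) and none was lower. These were Prdx5, Mgst1 with 1604, 2145, 4200 and 3681, Gstp1 with 1526, 1486, 2359 and 3087 and Txndc5, a protein disulfide isomerase, with 1777, 3219, 4136 and 3813. The slopes of Mgst1, Gstp1 and Txndc5 were 1.37 ± 0.34 (SE, adjusted p = 0.12), 1.11 ± 0.34 (SE, adjusted p = 0.26) and 1.07 ± 0.35 (SE, adjusted p = 0.31), so none was called, and at an unadjusted p under 0.05 there were 11 of 55 members and 8.18% of all probe sets. The sum of the neutrophil markers in these arrays went from 1458 to 2742, 8491 and 4737, highest at 18 months as for Mgst1, and that of the lymphocyte markers from 34814 to 35364, 40602 and 38528. The log2 ratio of 3 prime to 5 prime signal, which degraded RNA raises, moved with age in the same arrays, at 3.74, 2.63, 2.33 and 1.88 for Actb and 2.40, 1.78, 1.17 and 1.16 for Gapdh. The part of neutrophils and of RNA quality in these signals was not tested.

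In pituitary, Gpx2, a peroxidase best known from gut, and Prdx6 were higher from 4 to 10 months (1.34% of all). Gpx2 had 242, 587, 459.6 and 458 and kept the higher level. Prdx6 had 740.0, 1617, 761 and 895, and it was lower again from 10 to 18 months (0.613%). From 4 to 24 months Gstt1 was lower in pituitary (0.756%), with 227, 154, 206 and 107, the last close to the floor. In hypothalamus, Gstm7 was higher from 10 to 18 months (4.24%), with its lowest signal on the 10-month array with high hepatocyte markers. The Actb 3 prime to 5 prime log2 ratio of that array was 3.09, the highest of the tissue, against 1.21 at 18 months. Prdx5 was lower from 18 to 24 months (1.92%), with 2422, 1959, 3082 and 1291. No member had a called slope in pituitary, hypothalamus or spleen lymphocyte, while of all probe sets 2.83% were called higher and 0.976% lower in hypothalamus, 0.0998% and 0.057% in spleen lymphocyte, and 0.00713% higher and 0.0% lower in pituitary. At an unadjusted p under 0.05 there were 2 members in hypothalamus (14.6% of all probe sets) and 1 in pituitary (2.91%).

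**Figure D5:**
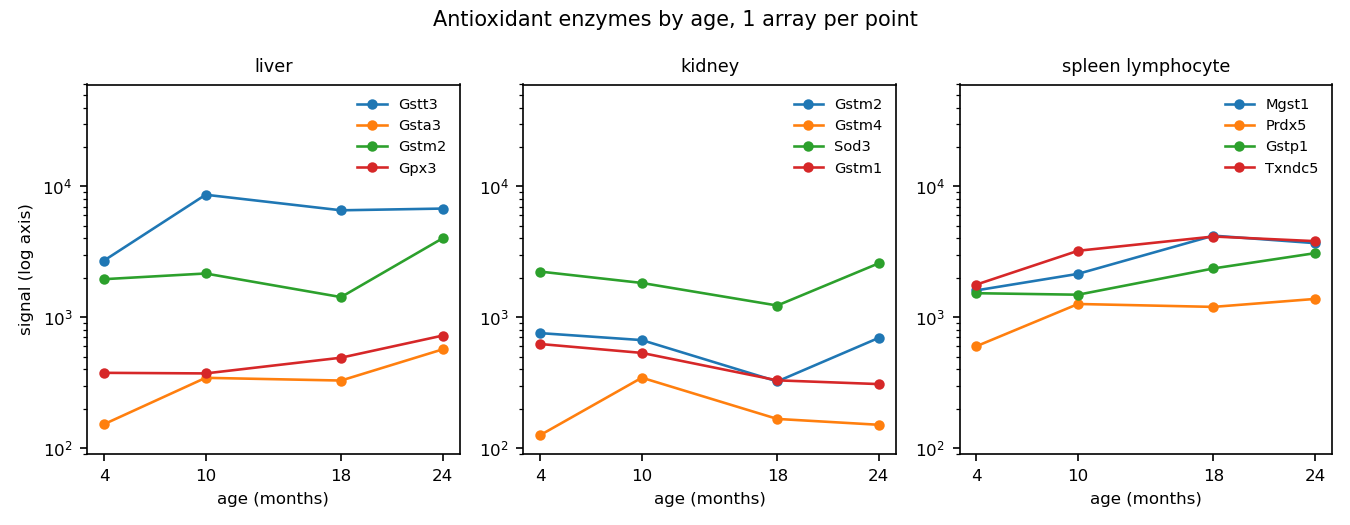
Signal on a log axis against age in months for named members in liver, kidney and spleen lymphocyte, with 1 array per point. Gstt3 and Gsta3 are lowest at 4 months in liver, Gstm2 and Sod3 are lowest at 18 months in kidney, and the 4 members of spleen lymphocyte end above their level at 4 months.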

How the data were processed

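Transcripts were measured on 24 Affymetrix RAE230A arrays. Each held the mixed RNA of 10 male Sprague-Dawley rats, for 1 of 6 tissues at 1 of 4 ages. The deposited values are intensities: per the labels and the study's methods, the authors summarised the scanned probes with MAS5.0 into signals on a linear scale and brought every array to a target of 500. The MAS5.0 version was not given in the sources used here. Detection calls were not used here, so a signal of 100 stood in for them. Such scaling leaves low signals noisy, and the floor of 100 makes differences of dim probe sets too small.

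Gene names came from an annotation table of the array. Of 15866 probe sets other than controls, 12783 had 1 gene symbol, 312 several and 2771 none. All 58 members were found in the RefSeq gene table (GRCr8). The members and the gene lists were chosen with earlier results of these data known, and marker lists and lists of related genes came from general knowledge. Signals were floored at 100 and put on the log2 scale. Tests were run with limma. Version 3.58.1 in R 4.3.3 fitted tissue and age as factors (15 residual degrees of freedom) and, for slopes, 1 line per tissue (12), with Benjamini-Hochberg adjustment over the 14031 probe sets at 100 or more on at least 4 arrays. Members tested were part of that fit. Groups of 1 array left changes within a tissue between 2 ages without a test, and they were counted at 2-fold with 100 or more on both arrays. Each fit was tested on simulated data. Every member could be named. Full values are given for the 4 most increased and 2 most decreased members called per tissue, for members past the 2-fold limit in a phase, for called slopes and for well-known enzymes, of which only part is printed in full, and the other members named were picked with their values known. The arrays' number limits the precision, and the spread behind a p-value is that over ages and tissues, not over rats.

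The alternatives tried were floors of 50 and 200, a pseudocount of 50 with no floor, quantile normalization, centring on the median, a filter of 12 arrays or none, array weights, 1 probe set per gene, tissue as the only factor, fold limits of 1.5 and 3, and leaving out each age or tissue in turn. Leaving out single arrays (10-month hypothalamus with 18-month kidney, 4-month bone, 18-month bone) was chosen after seeing the data. Python 3.11.15 with pandas 2.3.3 and matplotlib 3.10.9 was used for the rest.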

Additional observations from a re-analysis of the deposited data

Results flagged for a closer look

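Gstm7, a mu class glutathione transferase, went in opposite directions in 2 tissues from 10 to 18 months. In hypothalamus it was 1.09 higher on the log2 scale, with signals of 2159 and 4594, and in spleen lymphocyte it was 1.18 lower (-1.18), with signals of 239 and 106. The 10-month hypothalamus array also had the highest summed hepatocyte markers of the tissue, 13105 against 1372 at 18 months, and the highest Actb 3 prime to 5 prime log2 ratio, 3.09 against 1.21, and the part of these in the change was not tested. Each change rests on 1 array per age, and the difference between the tissues was not tested.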

How the results depend on the processing

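The tissue results held best. Of 143 calls of a member in a tissue, 103 were kept under every alternative tried and 0 changed sign. A floor of 200 lost the most, 18. The counts outside 1.5 times the reported one were those of members higher in pituitary (2 in place of 5 with centring on the median) and in spleen lymphocyte (1 in place of 2 with a floor of 200, or with no floor and a pseudocount of 50, and 1 to 3 with 1 age left out, lowest without 10 months). The common age changes stayed at 0 members under every alternative. The 5 called slopes were fragile, and 0 were kept under every alternative. In bone, the 4 calls became 0 with a floor of 50, 1 with a pseudocount of 50, and 2 each with quantile normalization, a filter of 12 arrays, no filter, array weights, or without the 10-month hypothalamus and 18-month kidney arrays. They were 0 without the 4-month bone array, 1 without the 18-month bone array, and 0 to 4 with 1 age left out, 0 without 4 or 18 months. In liver the 1 call became 0 with a floor of 50, a pseudocount of 50, centring on the median, a filter of 12 arrays, which leaves its 1 member, Gsta3, out, and whenever 1 age was left out (0 to 0). With a floor of 200, 1 member passed the test of a difference between the 6 slopes. Otherwise the cause was not tested. Counts of 2-fold changes moved most with the fold limit. At 1.5-fold, members higher and lower were 36 and 18 from 4 to 10 months, 20 and 23 from 10 to 18, and 18 and 23 from 18 to 24, and 14 and 8 in bone from 4 to 10 months. At 3-fold they were 1 and 2, 0 and 0, and 0 and 0, and 0 and 2 in bone. With a floor of 50, 8 members were lower from 4 to 10 months, 5 higher and 7 lower from 10 to 18, and 5 lower from 18 to 24. With a floor of 200 they were 1 higher and 2 lower from 10 to 18 and 1 lower from 18 to 24, and quantile normalization gave 1 lower from 18 to 24. The shares of all probe sets under these alternatives are not given here. The counts thus show only how far those of the members moved, and not whether they differ from the rest of the array. The tissue comparisons were made within each age, whose tissues came from the same rats, since age was a factor of the fit. Without the 4-month bone array 4 tissue calls were lost, Gpx3, Gpx7 and Gpx8 in bone and Prdx5 in kidney. The number of arrays, 1 per group, and pooled RNA, limits the precision, and signals near 100 carry the least information.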

Other observations

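Over all tissues and consecutive ages, 18 of the 58 members passed the 2-fold limit at least once and 40 did not. The same count over all probe sets was not made. By single comparisons the share was 3.11% for members and 4.25% for all probe sets. Among the related genes, heme oxygenase Hmox1 was higher from 4 to 10 months in spleen lymphocyte (1.89 on the log2 scale, from 639.8 to 2378), bone (1.23) and kidney (1.06). Mt2A, a metallothionein that binds zinc and copper, was higher over the same phase in pituitary (1.36) and spleen lymphocyte (1.62), and lower in spleen lymphocyte from 10 to 18 months (-1.23). Srxn1, which restores overoxidised peroxiredoxins, had liver signals of 114 at 4 months, 369.8 at 10 months and 120 at 18 months. Each of these changes rests on 1 array per age and has no test. Of the 60 related genes tested, 1 had a called slope over age in any tissue, Hp in hypothalamus (-3.21 ± 0.86 SE, adjusted p = 0.044 in limma). Of all probe sets, 0.976% were called lower and 2.83% higher in hypothalamus. Hp, a gene of hepatocytes, read 522, 1729, 170 and 38.1 there, highest on the 10-month array, where 5 of 6 measured hepatocyte markers were higher than at 4 months and after which 3 of 3 were lower, and their part in the slope was not tested.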
